A study of Mus musculus with 56 samples.

Results

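The genes described here are those named for proteins of the mitochondrial ribosome. Members were the rows of the deposited table that mapped to a protein-coding gene symbol of the form Mrpl or Mrps followed by a number and, in some, a letter. Pseudogenes were left out. There were 77 members among 25939 genes, 48 named for the large subunit (Mrpl) and 29 named for the small subunit (Mrps). Groups of members are split by these names, although Mrps18a and Mrps30 are placed in the large subunit of the mammalian ribosome and Mrps36 is now known as a subunit of the 2-oxoglutarate dehydrogenase complex. The rule used gene names and no measured value, and it was set with earlier results of these data known.

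RNA was sequenced from visceral adipose tissue (VAT) of 56 female C57BL/6J mice of 9 weeks, housed under 12 h of light and 12 h of dark with normal chow. After 7 days of free access to food, each mouse spent 7 days on its regimen. The mice of the DRF groups (daytime-restricted feeding) could eat only in the light phase. Those of the NRF groups (nighttime-restricted feeding, the reference) could eat only in the dark phase. Each regimen was sampled at 7 zeitgeber times (ZT, hours after lights on), from ZT0 to ZT24 in steps of 4 h, with 4 mice per group, and ZT0 and ZT24 were separate groups of mice. Each mouse gave 1 library at 1 time, and the tissue was sequenced whole. Fewer cells of a type and less RNA per cell therefore cannot be told apart.

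The mitochondrial ribosome translates the few proteins that mitochondrial DNA encodes, all of them subunits of the respiratory chain or of ATP synthase. Its RNAs come from mitochondrial DNA, whereas its proteins are encoded in the nucleus, made in the cytosol and imported. The small subunit reads the mRNA, and the large subunit joins the amino acids and is attached to the inner membrane. In adipose tissue, mitochondria supply the energy and carbon units for lipid synthesis and burn fatty acids during fasting.

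Promoters of nuclear genes for mitochondrial proteins are known for sites of nuclear respiratory factor 1 (NRF1, which is unrelated to the feeding regimen NRF), of GABP and other ETS factors, and of YY1. Windows of 300 bases, from 250 before to 50 after a start of transcription, were found by symbol for 68 of the 77 members in RefSeq (build GRCm38.p6). The RefSeq start lay within 850 bases of the start of the gene's annotated span in 64 of them, and farther away in Mrpl36 (2496 bases), Mrpl35 (3185 bases), Mrps24 (7979 bases) and Mrpl33 (17016 bases). The letters CCGGAAG (ETS), searched on both strands, were in 23 of these 68 windows (33.8%) and in 8.86% of all 32851 windows. All windows belong to 27025 symbols, some with more than 1 window, whereas each member has 1. They were not limited to genes expressed in VAT or matched in base composition, so the shares are not those of similar promoters. The NRF1 letters, GCGCA, any base and GCGC, were in 13 of 68 (19.1%, against 4.6% of all windows), and AAGATGG (YY1) also in 13 of 68 (19.1%, against 6.34%). The E-box CACGTG, which clock factors can bind, was in 5 of 68 (7.35%, against 7.15%), and the D-box TTANGTAA was in none (0 of 68, against 2.32%). In the 64 windows near the annotated start, 22 held the ETS letters (34.4%), 13 the NRF1 letters (20.3%), 10 the YY1 letters (15.6%) and 4 the E-box (6.25%). None of these letter patterns contains another. Among the 22 windows of members rhythmic under NRF, 9 held CCGGAAG (40.9%) and 2 held the NRF1 letters (9.09%). Among the other 46 windows, 14 held CCGGAAG (30.4%) and 11 held the NRF1 letters (23.9%). The windows of 4 members on which the results below turn are shown, in lower case with every match to the 5 patterns in capitals. Mrps22 (chr9:98601630-98601929, minus strand), Mrps2 (chr2:28467816-28468115, plus strand) and Mrpl12 (chr11:120484387-120484686, plus strand) had the largest daily rhythms under NRF. Mrps9 (chr1:42850983-42851282, plus strand) ran opposite to the other rhythmic members.
Mrps22: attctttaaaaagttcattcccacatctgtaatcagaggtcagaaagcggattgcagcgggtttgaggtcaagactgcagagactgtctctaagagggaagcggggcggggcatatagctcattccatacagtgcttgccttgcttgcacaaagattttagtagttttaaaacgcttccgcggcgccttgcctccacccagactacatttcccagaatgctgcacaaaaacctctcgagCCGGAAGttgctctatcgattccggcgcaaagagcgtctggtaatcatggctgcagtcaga
Mrps2: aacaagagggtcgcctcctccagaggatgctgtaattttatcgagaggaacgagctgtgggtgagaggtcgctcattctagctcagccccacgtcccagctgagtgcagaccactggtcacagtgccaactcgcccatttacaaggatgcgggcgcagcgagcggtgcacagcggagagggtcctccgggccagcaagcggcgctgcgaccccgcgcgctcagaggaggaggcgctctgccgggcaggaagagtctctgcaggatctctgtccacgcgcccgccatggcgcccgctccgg
Mrpl12: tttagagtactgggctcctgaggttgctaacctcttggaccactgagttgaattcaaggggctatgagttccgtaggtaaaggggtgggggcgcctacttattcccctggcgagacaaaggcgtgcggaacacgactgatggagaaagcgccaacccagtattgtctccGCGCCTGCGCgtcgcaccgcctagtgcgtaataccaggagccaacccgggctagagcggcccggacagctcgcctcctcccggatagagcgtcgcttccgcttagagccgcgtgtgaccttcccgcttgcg
Mrps9: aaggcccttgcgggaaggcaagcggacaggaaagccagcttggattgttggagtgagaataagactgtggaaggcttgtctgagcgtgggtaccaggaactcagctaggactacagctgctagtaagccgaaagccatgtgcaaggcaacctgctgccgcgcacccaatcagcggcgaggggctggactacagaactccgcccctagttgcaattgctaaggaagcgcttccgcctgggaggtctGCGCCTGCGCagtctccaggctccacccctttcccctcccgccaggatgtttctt
The window of Mrps22 held 1 ETS match, those of Mrpl12 and Mrps9 held 1 NRF1 match each, and that of Mrps2 held no match. A match of letters is a description and not a bound site.

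All 77 members had reads in all 56 libraries. Reads of each library were recovered from the deposited values, and levels are given as CPM or on the log2(CPM + 1) scale. CPM here divides the reads by the effective library size that the deposited values contain, not by the total of recovered reads. That size lay within 0.03 (log2) of a size by median-of-ratios scaling in every library. The total of recovered reads was 0.78 to 1.09 times the effective size over the 56 libraries. The mean ratio was highest in the DRF mice of ZT4 (1.05, from 0.996 to 1.09), beside 0.92 (0.88 to 0.95) in the NRF mice of ZT4, and lowest in the NRF mice of ZT8 (0.89). Scaling by the total was added as an alternative after the data were seen. It shifted the median difference of the genes with a mean log2(CPM + 1) of at least 1 by -0.16 at ZT4 and by -0.11 from ZT8 to ZT20 under NRF, and by less than 0.1 in the other comparisons. Its counts of members are given with the main results. The median of a member over the 56 libraries lay between 493 reads (Mrps18c) and 3728 reads (Mrpl30), and the lowest value in any library was 383 reads. All 77 passed a mean log2(CPM + 1) of at least 1, as did 14105 of the genes. Shares of all genes below also take in genes under that level. Where the share of the genes at that level is given too, it was the higher one. A member share slightly above that of all genes therefore need not exceed that of genes at the members' level. Per kilobase of exon, the mean level of members ranged from 3.28 to 86.8 CPM, with a median of 16.02. Mrps21 (86.8 CPM per kb), Mrpl34 (81.8 CPM per kb) and Mrpl20 (55.4 CPM per kb) were highest. Mrpl19 (3.28 CPM per kb), Mrps30 (3.47 CPM per kb) and Mrpl47 (3.61 CPM per kb) were lowest. These levels use the whole exon length of a gene, so that long exons used by few transcripts lower them. On the log2 scale, the SD between the 4 mice of a group had a median of 0.15 over members and groups.

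The libraries differed in ways that moved with the members. The recovered reads per library ranged from 31678737 to 41895549. The number of genes above 0 ranged from 21913 to 24110. The members' mean, taken over the 77 log2(CPM + 1) values after centring each gene, ranged from -0.40 (NRF ZT8 replicate 1) to 0.35 (DRF ZT4 replicate 4) over the 56 libraries. It was lower where more genes were above 0 (Pearson r = -0.84, adjusted permutation p = 5e-05, Spearman rho = -0.76, adjusted permutation p = 5e-05). These p-values are the smallest that 100000 permutations can give after adjustment over 15 relations. The correlation was -0.80 without the 2 libraries farthest from the median number of genes, -0.72 within NRF and -0.91 within DRF. Between mice of the same group it was -0.85. Scaled by the total of recovered reads, r was -0.70 over all libraries and -0.81 between mice of the same group, and the ratio of recovered reads to effective size itself had r = -0.81 with the number of genes above 0. With recovered reads, r was 0.04 (permutation p = 0.795). The part that RNA quality or library preparation has in this relation was not tested.

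**Figure D1:**
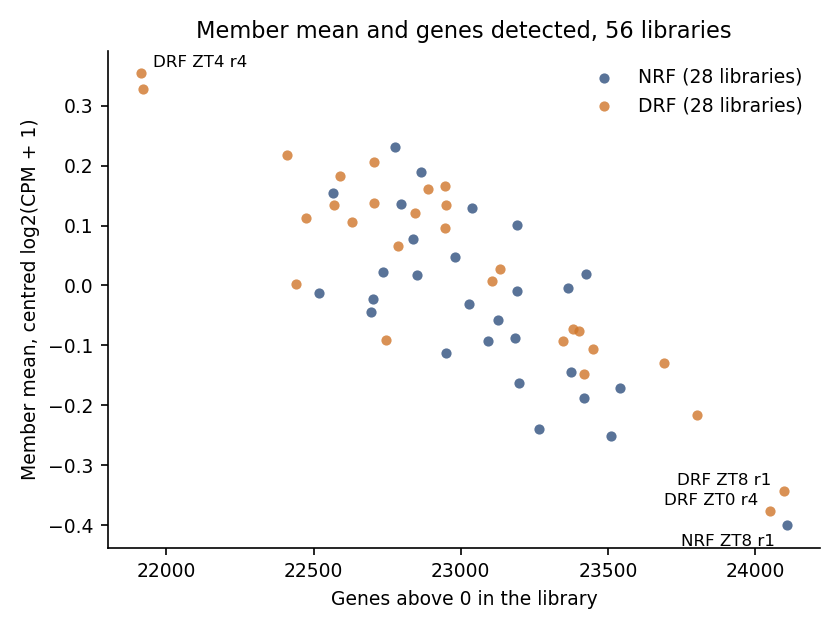
Mean centred log2(CPM + 1) of the 77 members (vertical axis) against the number of genes above 0 (horizontal axis) in each of the 56 libraries, coloured by regimen. The libraries with the most genes, 24052 to 24110, had the lowest member means, -0.34 to -0.40, and the 2 with the fewest, 21913 and 21920, had the highest, 0.35 and 0.33.

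DRF ZT8 replicate 1 and DRF ZT0 replicate 4 also stood apart in tissue markers. Markers of uterine and oviduct epithelium (5 of 7 listed genes measured, none at 0 in all libraries) summed to 381 CPM in DRF ZT8 replicate 1 and to 578 CPM in DRF ZT0 replicate 4, against 12.2 to 45.6 CPM elsewhere. Their adipocyte markers (8 of 8 measured) summed to 12786 and 18799 CPM, against 22452 to 46491 CPM in the other libraries. Markers of dividing cells (4 of 4 measured) summed to 231 CPM in DRF ZT8 replicate 1 and 33.5 CPM in DRF ZT0 replicate 4, against 8.03 to 111 CPM elsewhere. Both libraries had a low members' mean, -0.34 and -0.38, and results are given without them where this matters. Of the other relations with marker sums, those with ovary markers (r = -0.68, adjusted permutation p = 5e-05, 3 of 5 genes measured, sums of 0.7 to 3.6 CPM) and pancreas markers (r = 0.67, adjusted permutation p = 5e-05, 3 of 4 measured, sums of 5.5 to 34.1 CPM) were of similar size. That with the uterine and oviduct markers (r = -0.42, adjusted permutation p = 0.00499) fell to -0.05 without 2 libraries. The other 10 marker lists had r between -0.30 and 0.28, and none passed an adjusted p of 0.05. Within the regimens some of these values were larger. For the adipocyte markers r was 0.25 pooled, 0.69 within DRF, -0.09 within NRF and 0.64 between mice of the same group. The pooled value was 0.03 without the 2 libraries farthest from the median. For the blood markers r was 0.28 pooled, 0.52 within DRF, -0.36 within NRF and 0.39 between mice of the same group. For the uterine and oviduct markers it was -0.61 within DRF, 0.12 within NRF and -0.51 between mice of the same group. For the markers of dividing cells it was -0.18 pooled, -0.37 within DRF, -0.27 within NRF and -0.42 between mice of the same group. Their part in the results was not tested.

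Which members cycled over the day was asked first, in each regimen by itself. Under NRF, 24 of 77 members were rhythmic, 14 named Mrpl and 10 named Mrps. Of these, 21 peaked between ZT20 and ZT23 by the whole-hour estimate, in the second part of the dark phase when the mice could eat. The share of all rhythmic genes with a peak at these hours is not given here, so this count describes the members only. The paper places a cluster of phase-inverted VAT genes, over both regimens, at these hours too. The share of rhythmic members, 31.2%, compares with 24.5% of all genes and with 39.7% of the genes with a mean log2(CPM + 1) of at least 1. Under DRF, 1 member was rhythmic, Mrpl19, against 12.9% of all genes and 20.7% of the genes at that level. At an unadjusted p under 0.05 there were 33 members under NRF and 4 under DRF (42.9% and 5.19%, beside 30.3% and 20.2% of all genes). Mrpl19 was also the only member rhythmic under both regimens, against 7.85% of all genes. The test combined JTK_CYCLE and Lomb-Scargle p-values after the meta2d function of MetaCycle, with an adjusted p under 0.05 over all 25939 genes as the threshold. The DRF count depended on the method and on few libraries. By an F test of a 24-h cosine in limma, 32 members were rhythmic under NRF and 12 under DRF (41.6% and 15.6%, beside 33.7% and 26.7% of all genes). Scaled by the total of recovered reads, that test called 55 under NRF, 22 under DRF and 18 under both. These were 71.4%, 28.6% and 23.4%, beside 34.4%, 25.4% and 16.6% of all genes. The DRF count of the meta2d-type test was 7 without DRF ZT8 replicate 1 and DRF ZT0 replicate 4 (9.09%, beside 17% of all genes). The NRF count was 8, 12 and 13 without replicates 2, 3 and 4 (10.4%, 15.6% and 16.9%, beside 13.7%, 16.8% and 14.9% of all genes). It was 25 without replicate 1 (32.5%, beside 19%) and 39 without ZT24 (50.6%, beside 23.9%). With the number of genes above 0 as a term in the limma cosine test, the counts were 50 under NRF and 25 under DRF (64.9% and 32.5%, beside 36.8% and 31.8% of all genes). On log2(CPM + 1) the meta2d-type test called 29 under NRF and 4 under DRF (37.7% and 5.19%, beside 25.5% and 14.6% of all genes), and with scaling by the total of recovered reads on that scale it called 35 under NRF, 13 under DRF and 9 under both (45.5%, 16.9% and 11.7%, beside 26.3%, 14.7% and 9.82% of all genes). The DRF count thus also depended on the scale of the values.

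Mrps22, a small-subunit protein in which variants cause mitochondrial disease in humans, had the largest rhythm under NRF. Its gene lies at chr9:98588730-98601660 (minus strand, GRCm38), and its level was summed over 3991 bases of exon. At ZT8 its levels in the 4 NRF mice were 13.96, 13.7, 21.2 and 14.2 CPM, and at ZT20 they were 33.4, 38.8, 35.4 and 33.7 CPM. All mice of ZT20 were above all mice of ZT8. The fitted 24-h cosine had an amplitude of 0.50 ± 0.09 (SE, 28 libraries) on the log2 scale, a 1.998-fold difference between peak and trough, and peaked at ZT21.3 ± 0.7 (SE). The rhythm passed the threshold (meta2d-type test over all genes, adjusted p = 0.000771). Under DRF the amplitude was 0.22 ± 0.08 with a peak at ZT11.6 ± 1.6, and the rhythm did not pass (adjusted p = 0.781 in the same test).

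Mrps2, a protein of the small subunit, was next, with an amplitude of 0.39 ± 0.05 and a peak at ZT19.7 ± 0.5 under NRF. Its levels were 28.9, 24.7, 33.7 and 32.0 CPM at ZT8 and 56.1, 52.1, 51.7 and 45.6 CPM at ZT20. Here too the 2 groups of mice did not overlap. Under DRF its highest levels came at ZT4, with 62.1, 53.2, 62.0 and 63.8 CPM, and those of ZT20 were 30.3, 34.3, 40.5 and 31.3 CPM.

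Mrpl12, which binds the mitochondrial RNA polymerase besides its place in the large subunit, had an amplitude of 0.36 ± 0.08 under NRF with a peak at ZT20.7 ± 0.9. It read 38.3, 40.4, 62.1 and 46.9 CPM at ZT8 and 85.1, 87.0, 86.0 and 83.5 CPM at ZT20. The mice of ZT20 lay close together and above those of ZT8. Mrpl50, a large-subunit protein, had an amplitude of 0.33 ± 0.04 and a peak at ZT20.6 ± 0.4. Mrpl47, also of the large subunit, had an amplitude of 0.32 ± 0.07 and a peak at ZT21.4 ± 0.8. The 5 members named here for their amplitude thus all peaked from ZT19.7 to ZT21.4. Under DRF, none of the 5 passed the rhythm test.

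Mrpl19, a large-subunit protein, was the member that passed in both regimens. Its NRF levels were 13.2, 13.8, 14.8 and 15.7 CPM at ZT8 and 19.9, 23.9, 23.1 and 20.02 CPM at ZT20. Its DRF levels were 23.2, 23.4, 24.1 and 24.8 CPM at ZT4, 18.4, 16.7, 20.6 and 23.1 CPM at ZT8, and 13.7, 15.2, 14.6 and 15.6 CPM at ZT20. The order of ZT8 and ZT20 was reversed between the regimens, with no overlap between ZT8 and ZT20 mice in either. The amplitude was 0.28 ± 0.04 under NRF and 0.29 ± 0.06 under DRF, and the peak lay at ZT21.0 ± 0.6 under NRF and at ZT8.6 ± 0.7 under DRF. The rhythm passed with an adjusted p of 0.000129 under NRF and 0.0287 under DRF in the meta2d-type test. Among all genes rhythmic in both regimens, 1678 of 2037 (82.4%) had moved by 8 h or more. The DRF call was lost when any of the 4 replicate numbers was left out, with 0 members called each time. Of the exon bases of Mrpl19, 36.0% are also covered by Gcfc2 on the other strand. Reads there may have been counted for either gene or for neither.

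Mrps9, a small-subunit protein, was the exception among the rhythmic members under NRF and was singled out after its values were seen. It read 32.1, 40.5, 31.8 and 40.8 CPM at ZT8 and 25.0, 23.8, 26.8 and 28.5 CPM at ZT20, so that it was high when the other rhythmic members were low. Its amplitude was 0.24 ± 0.04 with a peak at ZT8.4 ± 0.6 (adjusted p = 7.88e-05, meta2d-type test). Under DRF it read 24.5, 27.3, 31.2 and 27.5 CPM at ZT8 and 29.9, 34.2, 32.4 and 32.7 CPM at ZT20. The 2 DRF groups overlapped in part, and the fitted peak was at ZT23.3 ± 0.7 (adjusted p = 0.215). Mrpl45, which is homologous to an inner-membrane protein and sits at the exit of the large subunit, had similar fitted peaks at ZT8.4 ± 1.1 and ZT0.5 ± 1.1, but did not pass the rhythm test in either regimen (adjusted p = 0.542 and 1).

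**Figure D2:**
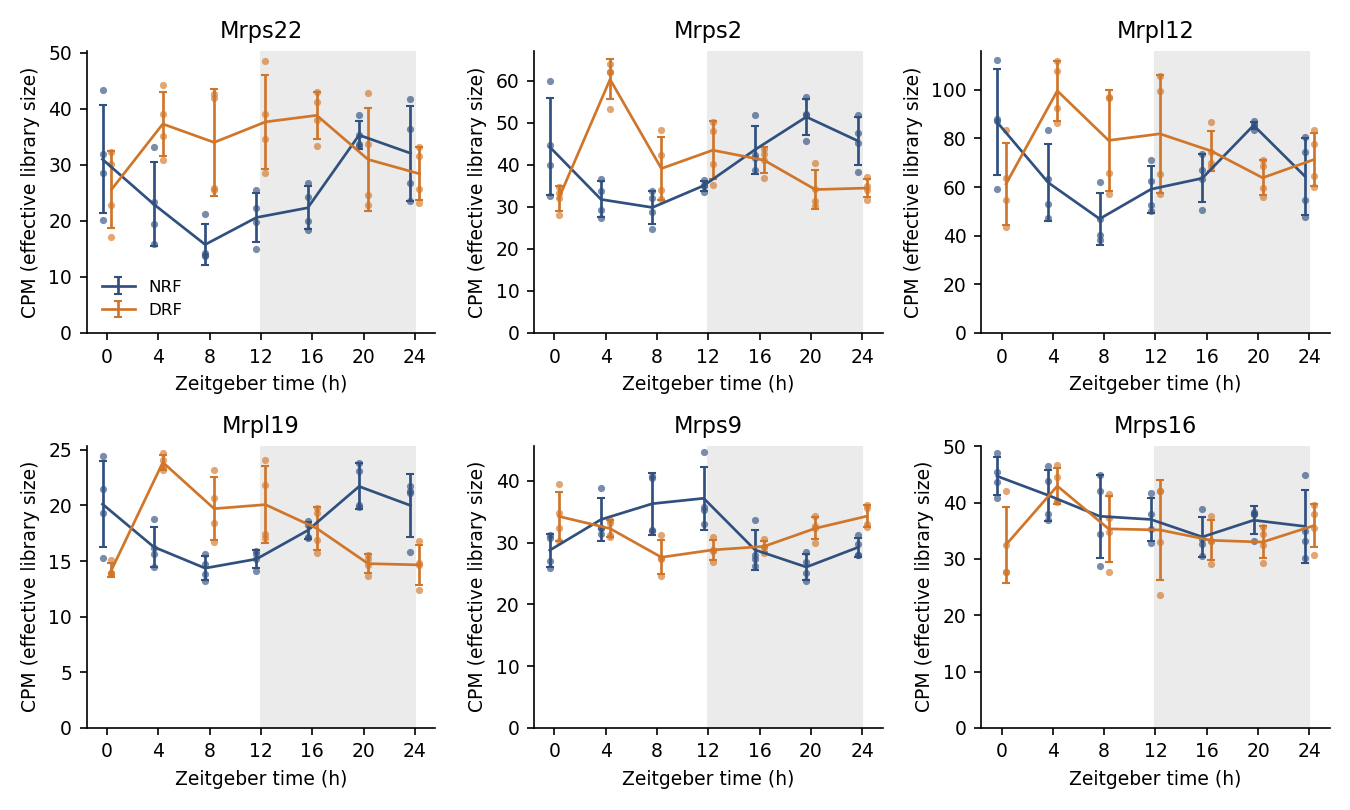
CPM of 6 members (vertical axes) against zeitgeber time in hours (horizontal axes; dark phase shaded), with points for single mice and lines with bars for the mean ± SD of 4 mice. Mrps22, Mrps2, Mrpl12 and Mrpl19 were lowest near ZT8 under NRF and higher under DRF at ZT4, Mrps9 ran the other way at ZT8, and Mrps16 had no called rhythm.

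The peaks of members without a call were also counted. By the cosine fit, 46 of the 77 members peaked between ZT20 and ZT24 under NRF, 16 between ZT0 and ZT4, and 15 at other times. Under DRF, 34 peaked between ZT4 and ZT8, 11 between ZT8 and ZT12, and 18 between ZT0 and ZT4. The peak times of all genes are not set beside these counts, which describe the members only. The median amplitude was 0.14 under NRF and 0.09 under DRF, beside 0.10 and 0.09 over all genes and 0.16 and 0.14 over the genes with a mean log2(CPM + 1) of at least 1. In 59 of 77 members the NRF amplitude exceeded the DRF one, as it did in 23 of the 24 that were rhythmic under NRF. Since those 24 were chosen by their NRF values, this count is a description only.

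**Figure D3:**
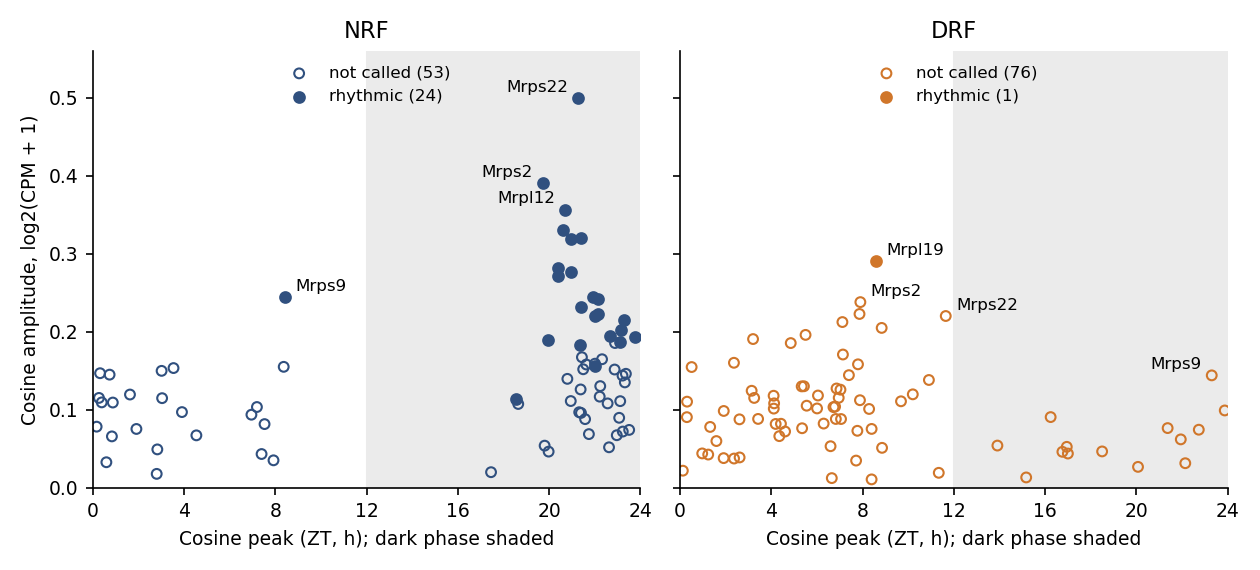
Amplitude of the fitted 24-h cosine on the log2(CPM + 1) scale (vertical axis) against its peak in zeitgeber hours (horizontal axis; dark phase shaded) for the 77 members under NRF (left) and DRF (right), filled where the rhythm test was passed. Under NRF 20 of the 24 filled points lie between ZT20 and ZT24, 3 between ZT16 and ZT20 and Mrps9 at ZT8.4, and under DRF the single filled point is Mrpl19.

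Whether the daily course differed between the regimens was then tested directly, with a cosine for each regimen in limma over 25937 genes. The rhythm of 28 members differed (adjusted p under 0.05), 36.4% of members beside 36% of all genes and 54% of the genes with a mean log2(CPM + 1) of at least 1. The members' share was thus near that of all genes by this scaling. Of the 24 members rhythmic under NRF, 20 were among the 28. Mrpl19 had the smallest adjusted p (7.37e-09, limma), followed by Mrps9 (2.03e-08, limma). Mrps2 (1.28e-06), Mrps18b (1.89e-06), Mrpl3 (5.67e-06) and Mrps22 (1.43e-05, all limma) also passed. A further test asked whether the DRF rhythm departed from the NRF rhythm moved by 12 h, as a full inversion of feeding time would place it. It did for 7 members (9.09%, beside 14.9% of all genes and 23.2% of the genes at that level), namely Mrpl21, Mrpl42, Mrpl52, Mrpl54, Mrps9, Mrps21 and Mrps33. For the other 70 the departure did not pass the threshold, which does not show that they moved by 12 h. The count was 21 without the 2 libraries that stood apart (27.3%, beside 18.9% of all genes), 1 without replicate 2 (beside 5.49%), 0 without replicate 3 (beside 8.43%), and 38 with the number of genes above 0 as a term (49.4%, beside 20.1% of all genes). The count of members with another rhythm was 14 without replicate 4 (18.2%, beside 30% of all genes). Scaling by the total of recovered reads gave 43 members with another rhythm (55.8%, beside 36% of all genes) and 27 that departed from the 12 h shift (35.1%, beside 14.5%).

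Mid-feeding was then compared with mid-fasting within each regimen, and the difference between the 2 contrasts was not tested. Under NRF, 29 members changed from ZT8 (fasting) to ZT20 (feeding), 28 of them higher in feeding. This was 36.4% for higher members beside 11.8% of all genes higher, 10% lower, and 20.2% of the genes with a mean log2(CPM + 1) of at least 1. The median difference over the 77 members was 0.25, beside -0.01 over all genes, and 65 of 77 differences were above 0. The NRF libraries had 22951 to 24110 genes above 0 at ZT8 and 22837 to 23192 at ZT20. With that number as a term in limma, 25 members were higher and 4 lower in feeding (32.5% and 5.19%, beside 11.9% and 10.3% of all genes). Of the 13 marker lists, the pancreas markers differed without overlap in this contrast, with 7.42 to 11.2 CPM at ZT8 and 13.2 to 22.5 CPM at ZT20, and their r with the members' mean was 0.75 within NRF. Their part was not tested. Mrps22 rose by 1.13 ± 0.22 (SE, adjusted p = 0.000135, limma), Mrpl12 by 0.88 ± 0.20, Mrps2 by 0.77 ± 0.13, Mrpl50 by 0.73 ± 0.14 and Mrpl47 by 0.72 ± 0.15. Mrpl3 rose by 0.48 ± 0.09 (adjusted p = 3.77e-05, limma). The member that was lower in feeding was Mrps9, at -0.46 ± 0.09. Under DRF, from ZT20 (fasting) to ZT8 (feeding), 2 members changed, beside 11.5% of all genes (5.73% higher and 5.8% lower). Mrpl19 was higher in feeding (0.39 ± 0.11, adjusted p = 0.014, limma), and Mrpl39 was lower (-0.26, adjusted p = 0.045, limma). The median difference of the 77 members was -0.01 under DRF, with 36 of 77 above 0. With scaling by the total of recovered reads, 25 members were higher and 4 lower in feeding under NRF (32.5% and 5.19%, beside 8.49% and 13.4% of all genes), where the median was 0.14 beside -0.09 over the genes with a mean log2(CPM + 1) of at least 1. Under DRF the same scaling turned the sign of the median, to 0.06 beside 0.09 over those genes, and 5 members were higher and 1 lower in feeding (6.49% and 1.3%, beside 7.86% and 4.11% of all genes). The count under NRF was 13 without replicate 2 (16.9%, beside 11.6% of all genes), 12 of them higher in feeding. ZT8 is also the time of one of the libraries that stood apart. Under DRF, 4 members changed without the 2 (5.19%, beside 9.58% of all genes), all higher in feeding. The DRF count was 0 without replicate 3 (beside 8.94% of all genes) and 1 without replicate 2 or 4 (1.3%, beside 6% and 8.46%). With the number of genes above 0 as a term, 7 members were higher and 1 lower in feeding under DRF (9.09% and 1.3%, beside 6.43% and 6.49% of all genes).

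The mean level over the day was higher under DRF in 22 members and lower in none that passed the threshold (limma, cosine fit). These 22 were 28.6% of the members, beside 11.4% of all genes higher and 10.3% lower, and 17.9% higher among the genes with a mean log2(CPM + 1) of at least 1. The median difference was 0.07, beside -0.00 over all genes, and 59 of 77 were above 0. At an unadjusted p under 0.05, 31 members were higher and 1 was lower (40.3% and 1.3%, beside 16.3% and 15.9% of all genes). By name, 15 of 48 Mrpl and 7 of 29 Mrps members were higher. With scaling by the total of recovered reads, 20 members were higher and 8 lower (beside 8.49% and 13.9% of all genes), with a median of 0.03 beside -0.04 over the genes with a mean log2(CPM + 1) of at least 1. Mrps16 (-0.15), Mrps30 (-0.10) and Mrps18a (-0.09) were among those 8. With the number of genes above 0 as a term, 25 members were higher and 4 lower (32.5% and 5.19%, beside 12.3% and 10.9% of all genes). Tissue markers moved in the same contrast. In mean level 3 of 4 mesothelium, 3 of 5 macrophage and 3 of 5 adipose progenitor markers were lower under DRF, 2 of 8 adipocyte markers were lower and 1 higher, and 4 of 4 markers of dividing cells, 3 of 4 of blood and 1 of 3 of pancreas were higher (limma, adjusted p under 0.05). Their part in the members' difference was not tested.

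The largest rise was again Mrps22, from 25.7 CPM on average under NRF to 33.2 CPM under DRF. Its lowest, median and highest levels over 28 libraries were 13.7, 23.9 and 43.3 CPM under NRF and 17.2, 33.3 and 48.5 CPM under DRF, so that the regimens overlapped. The difference was 0.48 ± 0.09 (SE) on the log2 scale, or 1.39-fold (adjusted p = 3.47e-05, limma). Mrpl16, a large-subunit protein (chr19:11770391-11774960, plus strand), rose by 0.33 ± 0.06, or 1.25-fold (adjusted p = 4.74e-05, limma). Mrpl20 rose by 0.25 ± 0.07, Mrpl50 by 0.25 ± 0.06 and Mrpl12 by 0.24 ± 0.08. These 5 differences were small beside the NRF swing of Mrps22 between ZT8 and ZT20. The count was 39 without the 2 libraries that stood apart (50.6%, beside 28.9% of all genes in either direction) and 12 without ZT24 (15.6%, beside 19.5%). It was 14, 11 and 10 without replicates 2, 3 and 4 (18.2%, 14.3% and 13%, beside 14.9%, 14.7% and 17.1%), with none lower in any of these. Without replicate 1, 16 were higher and 1 lower, 22.1% of members in either direction beside 17.7% of all genes.

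At single time points the direction depended on the hour. At ZT4, 24 members were higher under DRF and none lower (31.2% higher, beside 10.4% of all genes and 18% of the genes with a mean log2(CPM + 1) of at least 1, with 9.04% of all genes lower). At ZT8, 15 were higher and 2 lower (19.5% higher, beside 9% of all genes higher and 7.47% lower), and 10 members were higher at both ZT4 and ZT8 (13%, beside 4.53% of all genes). At ZT12, 7 were higher and 2 lower (8.76% and 7.38% of all genes, 16.1% in either direction). At ZT16, 3 were higher and none lower (5% and 4.97% of all genes, 9.97% in either direction). At ZT20, 1 was higher and 4 lower (6.72% and 6.41% of all genes, 13.1% in either direction). At 1 or more of the 7 time points 45 members were called (58.4%), beside 44.3% of all genes. For this count the share of the genes with a mean log2(CPM + 1) of at least 1 is not given here. With scaling by the total of recovered reads, 17 members were higher and 3 lower at ZT4 (22.1% and 3.9%, beside 5.74% and 15.8% of all genes). At ZT8 that scaling gave 22 and 3 (beside 7.74% and 8.54% of all genes), at ZT12 21 and 2 (beside 9.6% and 6.26%), at ZT16 7 and 1 (beside 4.33% and 5.38%), and at ZT20 2 and 7 (beside 5.92% and 6.82%). The median difference of the 77 members at ZT4 was 0.24 by the effective size and 0.06 by the total, beside -0.01 and -0.17 over the genes with a mean log2(CPM + 1) of at least 1. Without replicate 4, 7 members were called at ZT4 and 5 at ZT8 (9.09% and 6.49%, beside 10.2% and 8.72% of all genes), and without replicate 3 the ZT4 count was 12 (15.6%, beside 10.1%). At ZT8, 36 were called without the 2 libraries that stood apart (46.8%, beside 19.3% of all genes), 35 of them higher, and 9 and 11 without replicates 2 and 3 (beside 10.7% and 14.5%). With the number of genes above 0 as a term, 17 were higher and 3 lower at ZT12 (beside 10.3% and 8.61% of all genes), 13 and 1 at ZT16 (beside 6.7% and 6.12%), and 2 and 12 at ZT20 (beside 7.93% and 8%). At ZT12 the count was 2 without replicate 1 or 2 (2.6%, beside 10.4% and 8.19% of all genes) and 4 without replicate 4 (5.19%, beside 11.9%). At ZT16 it was 1 without replicate 1, 3 or 4 (1.3%, beside 5.86%, 5.97% and 5.54%). At ZT20 it was 3 without replicate 2 (3.9%, beside 6.25%).

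Mrps2 had the largest difference at ZT4. Under NRF it read 33.8, 36.7, 29.2 and 27.3 CPM, beside 62.1, 53.2, 62.0 and 63.8 CPM under DRF. The groups were far apart, and the difference was 0.91 ± 0.13 (SE, adjusted p = 1.68e-06, limma). At ZT20 the order was reversed, with 56.1, 52.1, 51.7 and 45.6 CPM under NRF and 30.3, 34.3, 40.5 and 31.3 CPM under DRF (-0.58 ± 0.13, adjusted p = 0.0012, limma). Mrps22 and Mrpl12 were the next largest at ZT4, at 0.71 ± 0.22 and 0.70 ± 0.20. At ZT8 Mrps22 was largest, at 1.04 ± 0.22 (adjusted p = 0.00069, limma), from 13.96, 13.7, 21.2 and 14.2 CPM under NRF to 25.9, 25.4, 42.0 and 42.7 CPM under DRF. It was also higher under DRF at ZT12 (0.84 ± 0.22) and ZT16 (0.78 ± 0.22), and it was the only member besides Mrpl16 called higher at ZT4, ZT8, ZT12 and ZT16. At ZT8 the 2 members lower under DRF were Mrps9 (-0.38 ± 0.09) and Mrpl45 (-0.36 ± 0.11), and the same 2 were lower at ZT12.

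The difference at ZT4 moved with the number of genes detected and with tissue markers. The 4 DRF libraries of ZT4 had 21913, 21920, 22590 and 22705 genes above 0, beside 22737, 23040, 23366 and 23374 in the NRF libraries of ZT4. With that number as a term in limma, an alternative added after the data were seen, 4 members were called higher and 6 lower at ZT4 (5.19% and 7.79%, beside 7.44% and 7.84% of all genes). Mrps2 was 1 of the 4 (0.76, adjusted p = 7.35e-05, limma). Of the 13 marker lists, 3 were lower without overlap in the DRF mice of ZT4. The adipose progenitor markers summed to 1652 to 1842 CPM under DRF and 2097 to 3266 CPM under NRF, the mesothelium markers to 219 to 338 and 355 to 546 CPM, and the ovary markers to 0.88 to 1.35 and 1.54 to 1.77 CPM. The blood markers summed to 392 to 743 CPM under DRF and 149 to 412 CPM under NRF. At ZT8 the adipocyte markers were lower without overlap under DRF (12786 to 32045 CPM, beside 33596 to 45830 CPM) and the pancreas markers higher (12.5 to 34.1 CPM, beside 7.42 to 11.2 CPM). At ZT12 5 lists did not overlap, at ZT16 4, at ZT20 none, and at ZT0 and ZT24 the blood markers alone, which were higher under DRF. The part of library properties and of other cells in these differences was not tested.

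The 2 ends of the day, which share a clock time, did not give the same picture. At ZT0, 13 members were lower under DRF and none higher (16.9% lower, beside 5.06% of all genes lower and 5.41% higher). Without the 2 libraries that stood apart, 9 were called at ZT0 in either direction (11.7%, beside 11.2% of all genes). At ZT24, 5 were higher and 3 lower (beside 6.09% and 5.24% of all genes). The median difference over the 77 members was -0.25 at ZT0 and 0.10 at ZT24. Over the genes with a mean log2(CPM + 1) of at least 1 it was -0.02 and -0.03. In 56 members the difference was below 0 at ZT0 and above 0 at ZT24. In 18 members the difference was below 0 at both, and in 3 it was above 0 at both. Mrpl19, Mrpl47 and Mrps2 were called lower under DRF at both times. The shares of all genes called at both times, or with such a change of sign, are not given here, so these counts describe the members only. Mrpl19 read 15.3, 21.5, 24.5 and 19.3 CPM under NRF at ZT0 and 13.9, 13.9, 15.1 and 13.9 CPM under DRF, a difference of -0.46 ± 0.11 (adjusted p = 0.004, limma). At ZT24 it read 15.8, 21.1, 21.8 and 21.3 CPM under NRF and 12.4, 14.8, 14.6 and 16.8 CPM under DRF, a difference of -0.42 ± 0.11 (adjusted p = 0.0073, limma). The groups did not overlap at ZT0 and overlapped by 1 mouse of each at ZT24. The ZT0 count was 3 without replicate 2 or without replicate 4 (3.9%, beside 3.74% and 5.76% of all genes), and 20 without replicate 1 (26%, beside 11.2%). The ZT24 count was 1, 2 and 3 without replicates 2, 3 and 4 (1.3%, 2.6% and 3.9%, beside 4.11%, 6.3% and 5.59% of all genes). With the number of genes above 0 as a term, 5 members were called at ZT0 (1 higher, 4 lower, beside 5.33% and 4.12% of all genes) and 16 at ZT24 (12 higher, 4 lower, beside 7.39% and 6.37%). Scaling by the total of recovered reads gave 30 calls at ZT0 (1 higher, 29 lower, beside 4.99% and 5.25% of all genes) and 10 at ZT24 (4 higher, 6 lower, beside 4.69% and 8.29%), with medians of -0.23 and 0.01.

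**Figure D4:**
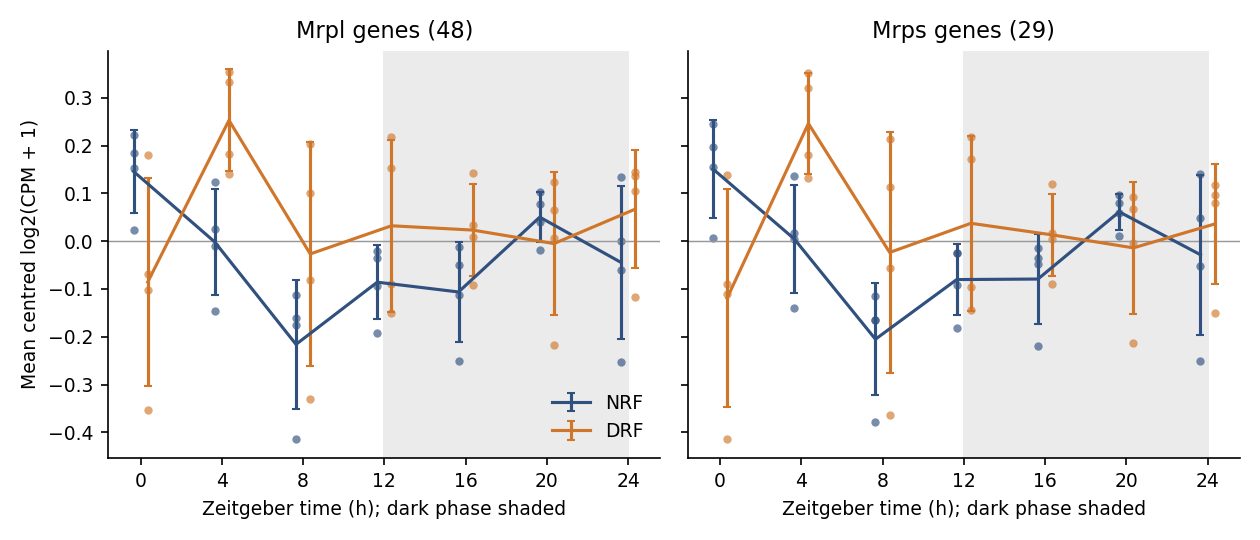
Mean centred log2(CPM + 1) of the 48 genes named Mrpl (left) and the 29 named Mrps (right) on the vertical axes against zeitgeber time in hours (dark phase shaded), with points for libraries and lines with bars for the mean ± SD of 4 mice. Both were lowest under NRF at ZT8 (-0.22 and -0.21) and highest under DRF at ZT4 (0.25 and 0.25).

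The means of the Mrpl and the Mrps genes lay close together in each group. The Mrpl mean in the NRF groups was 0.15 ± 0.09 (SD, n = 4) at ZT0, -0.22 ± 0.13 at ZT8 and 0.05 ± 0.05 at ZT20, and the Mrps mean was 0.15 ± 0.10, -0.21 ± 0.12 and 0.06 ± 0.04. In the DRF groups the Mrpl mean was 0.25 ± 0.11 at ZT4 and -0.01 ± 0.15 at ZT20, and the Mrps mean was 0.25 ± 0.11 and -0.01 ± 0.14. The spread between DRF mice was widest at ZT0 and ZT8, with SDs of 0.22 and 0.24 over all 77 members, the 2 groups that hold the libraries that stood apart.

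**Figure D5:**
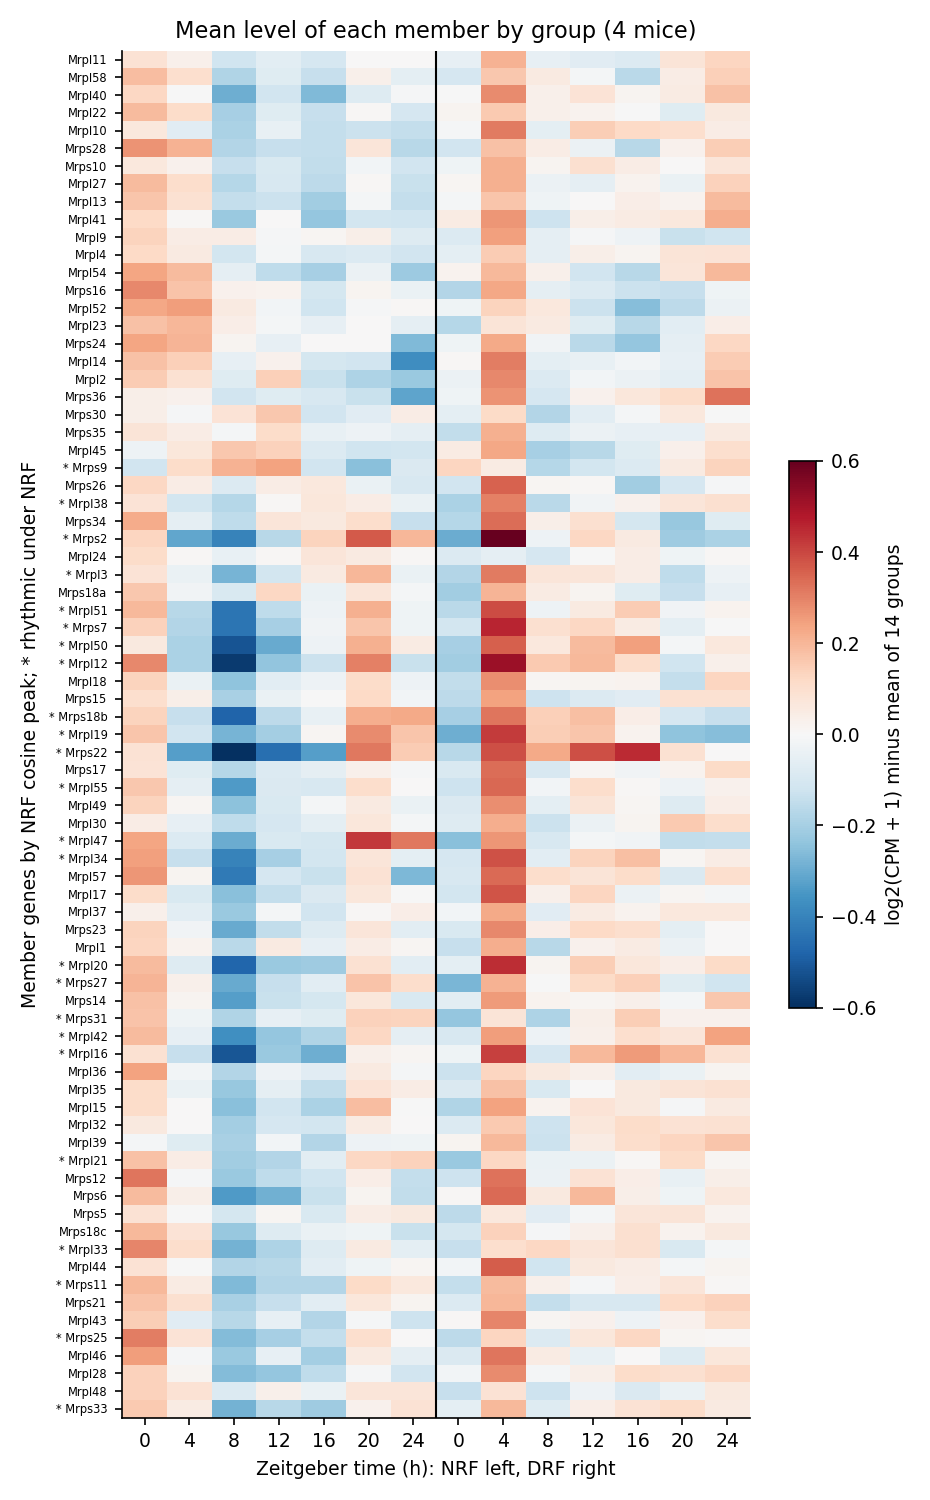
Mean log2(CPM + 1) of each of the 77 members in the 14 groups of 4 mice, relative to the gene's own mean of the groups (colour), with genes ordered by their NRF cosine peak (vertical axis) and zeitgeber hours from 0 to 24 for NRF and then for DRF (horizontal axis). Most rows are low under NRF at ZT8 and high under DRF at ZT4, while Mrps9 and Mrpl45 are high under NRF at ZT8 and ZT12.

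The members named for their roles did not all pass. Mrps18a, Mrps18b and Mrps18c are paralogs related to a bacterial small-subunit protein, of which the first is placed in the large subunit of the mammalian ribosome. Mrps18b was rhythmic under NRF (amplitude 0.32 ± 0.07, peak ZT20.9 ± 0.8, adjusted p = 0.00901, meta2d-type test), while Mrps18a (0.05 ± 0.05) and Mrps18c (0.09 ± 0.05) did not pass (adjusted p = 1 for both). A difference in rhythm between the paralogs was not tested. Mrps16, a small-subunit protein with known disease variants, had a mean difference of -0.10 ± 0.06 between the regimens (adjusted p = 0.222, limma), or -0.15 with scaling by the total of recovered reads (adjusted p = 0.0113, limma), and by the effective size passed only at ZT0 (-0.47 ± 0.14, adjusted p = 0.025, limma). Mrps34, another disease gene of the small subunit, was higher under DRF at ZT4 (0.39 ± 0.14, adjusted p = 0.036, limma), which did not pass with scaling by the total of recovered reads (0.21, adjusted p = 0.114, limma), and 77.8% of its exon bases are also covered by Mapk8ip3 and Nme3.

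Mrpl3 and Mrpl44 are large-subunit genes with known disease variants. Mrpl3 was rhythmic under NRF with an amplitude of 0.19 ± 0.03 and a peak at ZT19.96 ± 0.57 (adjusted p = 0.000237, meta2d-type test). Mrpl44 had an amplitude of 0.11 ± 0.03 and an adjusted p of 0.0556, and was higher under DRF at ZT4 by 0.36 ± 0.09 (adjusted p = 0.0023, limma). Mrps12, whose gene lies head to head with Sars2, the mitochondrial seryl-tRNA synthetase gene, had an amplitude of 0.15 ± 0.05 and an adjusted p of 0.172. It was lower under DRF at ZT0 (-0.45 ± 0.13, adjusted p = 0.017, limma). In all, 32 of the 77 members share some exon bases with another annotated gene, and 9 share at least 20%.

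The other genes of mitochondrial translation were counted in lists. Beside these counts, 11.4% of all genes were higher and 10.3% lower in mean level, and 11.8% rose and 10% fell from ZT8 to ZT20 under NRF. Of 5 ribosomal proteins with other symbols, Ptcd3 (0.28 ± 0.06) and Dap3 (0.10 ± 0.03) were higher under DRF in mean level, and Ptcd3 rose by 0.83 from ZT8 to ZT20 under NRF. Of 16 translation factors, 6 were higher and none lower in mean level, with the elongation factor genes Gfm1 (0.40 ± 0.08), Tsfm (0.22 ± 0.05) and Tufm (0.21 ± 0.05) among them, and 7 rose from ZT8 to ZT20 under NRF. Of 20 aminoacyl-tRNA synthetases and amidotransferase subunits, 9 were higher and none lower in mean level, led by Gatb (0.43 ± 0.06), and 11 rose and 2 fell from ZT8 to ZT20 under NRF. Of 25 assembly and rRNA modification factors, 4 were higher and 2 lower in mean level (16% and 8%, near the shares of all genes), and 11 rose and 3 fell from ZT8 to ZT20 under NRF, with Mrm3 (0.92), Fastkd2 (0.72) and Noa1 (0.68) highest. Their medians of the difference between ZT20 and ZT8 under NRF were 0.20, 0.22, 0.33 and 0.04, in the order of these lists. Of 13 regulators, Tfb2m, which opens mitochondrial promoters, was higher under DRF (0.19 ± 0.05) and Myc was lower (-0.23 ± 0.08). Of 15 RNAs from mitochondrial DNA, none passed the test between ZT8 and ZT20 in either regimen, with medians of 0.03 under NRF (ZT20 minus ZT8, 10 of 15 above 0) and -0.44 under DRF (ZT8 minus ZT20, 2 of 15 above 0). At ZT20 their median difference between DRF and NRF was 0.48, with 14 of 15 above 0. In mean level mt-Nd2, mt-Co2 and mt-Nd1 were higher under DRF. By the total of recovered reads, 2 were higher in mean level, 1 was lower in feeding under DRF, and the NRF median turned to -0.09. With the same scaling, 5 translation factors and 7 of the synthetase list were higher in mean level and none lower, and 4 assembly factors were higher and 5 lower. The median of the assembly factors between ZT20 and ZT8 under NRF turned to -0.07, with 7 higher and 4 lower. In that contrast 9 of the synthetase list were higher and 5 lower (45% and 25%), and 6 translation factors were higher and none lower. Of all genes, 8.49% were higher and 13.4% lower. These lists were written with earlier results of the same data known.

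Cytosolic ribosomal protein genes (78) and genes of the respiratory chain and ATP synthase (82) gave other counts. In mean level, 58 of the 78 cytosolic genes were lower under DRF and none higher, with a median of -0.24 beside the 0.07 of the members. Of the 82 respiratory genes, 40 were higher and 1 lower, with a median of 0.16. At ZT4, 14 cytosolic genes were lower and 1 higher, while 35 respiratory genes were higher and none lower, beside 24 and 0 of the members. The rhythm of 2 cytosolic and 4 respiratory genes differed between the regimens (2.56% and 4.88%), beside 28 of the members (36.4%). The share was 36% over all genes and 54% over the genes with a mean log2(CPM + 1) of at least 1. By the total of recovered reads, the members' share was 55.8%, beside 36% of all genes. Under NRF, 1 cytosolic and 2 respiratory genes were rhythmic. By the total of recovered reads, 69 cytosolic genes were lower in mean level and none higher, and 40 respiratory genes were higher and 2 lower. At ZT4 that scaling gave 61 lower and 1 higher cytosolic genes, and 26 higher and 2 lower respiratory genes. The difference between these sets of genes was not tested.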

How the data were processed

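Poly-A RNA of 56 VAT samples was sequenced, 1 library per mouse. The submitters' processing notes name HISAT2 2.0.5, featureCounts 1.5.0-p3 and mm10. The kit did not mark strand, and the strand setting of the counting is not given in the sources used here. The values deposited by the authors are named TPM but do not follow that definition, so they were treated as a score. They equal a scale factor per library, divided by the exon length, times the base-2 logarithm of 1 plus a read count over library size. Whole reads were recovered from these steps, with exon lengths from GENCODE for 25051 genes and from the values for 877 (5 members among them), and divided by the effective library size that the values contain, which gives CPM relative to that size and not to the total of recovered reads. Recovered reads ranged from 31678737 to 41895549 per library. Tests planned for log2 TPM were therefore run on log2(CPM + 1).

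The members, lists and markers were chosen with earlier results of these data known. Rhythms were tested per regimen on the deposited values with JTK_CYCLE and a Lomb-Scargle periodogram, whose p-values were merged with Fisher's method as meta2d does. Other tests used limma 3.58.1 in R 4.3.3 with an intensity trend over 25937 genes (2 without recovered reads were left out), as a cosine fit or a fit of 14 group means, with Benjamini-Hochberg adjustment over all genes. Genes were named by a rule: the 5 largest amplitudes per regimen and the 5 largest changes of mean level among those called, the 3 highest and 3 lowest levels per kb, the Mrps18 paralogs, and a short list of known genes (Mrpl12, Mrps12, Mrps34, Mrps22, Mrps16, Mrpl3 and Mrpl44). Genes named elsewhere, Mrps9 and Mrpl45 among them, were chosen after their values were seen. P-values measure the spread between mice. Other scalings, pseudocounts, filters, rhythm tests, the replicate number as a term and leaving out libraries were tried. The scripts were tested on simulated data. Python 3.11.15, numpy 2.4.6, pandas 2.3.3 and scipy 1.17.1 were used.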

Additional observations from a re-analysis of the deposited data

Results flagged for a closer look

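The members' mean of the DRF ZT24 replicate 1 library was -0.130, apart from 0.095, 0.122 and 0.134 in the other 3 mice of its group. This held for the genes named Mrpl (-0.117) and for those named Mrps (-0.151). This library had 23690 genes above 0. The mean of the Mrps genes of NRF ZT16 replicate 1 was -0.219, apart from -0.048, -0.036 and -0.015. In these 4 cases the gap to the nearest mouse divided by the range of the group was above Dixon's critical value for 4 samples. Chance gives about 1 in 20 such group means. The 42 tested were the means of all members, of the Mrpl and of the Mrps genes in each of 14 groups. They overlap and are not independent, and most of the 4 cases are the DRF ZT24 replicate 1 library. Over single members, 64 of 1078 groups of 4 mice (5.94%) passed the same limit.

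The DRF rhythm of 7 members departed from the NRF rhythm moved by 12 h in limma, with adjusted p-values of 0.0486 for Mrpl21, 0.0340 for Mrpl42, 0.00206 for Mrpl52, 0.0143 for Mrpl54, 0.0389 for Mrps9, 0.0213 for Mrps21 and 0.0375 for Mrps33. Median reads per library on pseudogenes named after members, which no comparison used, were 25 for Mrpl23-ps1, 45 for Mrpl48-ps, 3.5 for Mrps36-ps2 and 4 for Mrps36-ps1.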

How the results depend on the processing

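For single named genes, 57 values were recomputed under each of 11 alternatives, and 19 of them without ZT24. None changed sign. Of the 57, 11 no longer passed without replicate 4, 10 with the number of genes above 0 as a term, 6 without replicate 3, 4 without replicate 2, 2 with scaling by the total of recovered reads and 1 without replicate 1. Without ZT24, 1 of the 19 was lost. Under any 1 alternative, at most 5 passed newly. Counts of members moved more, and the cause was not tested. Counts below that stand without a share of all genes are descriptions only. With 1 replicate number left out in turn, members rhythmic under NRF numbered 8 to 25, those rhythmic under DRF or under both 0, those with another mean level 10 to 17, with another rhythm 14 to 26 and with a departure from the 12 h shift 0 to 10. Likewise, calls at ZT0 were 3 to 20, at ZT4 7 to 25, at ZT8 5 to 24, at ZT12 2 to 9, at ZT16 1 to 2, at ZT20 3 to 6 and at ZT24 1 to 7. Changes between feeding and fasting were 13 to 27 under NRF and 0 to 2 under DRF. Members rhythmic under DRF and under both were 12 and 8 by the limma cosine test, 4 and 3 on log2(CPM + 1), and 0 and 0 without ZT24. By the limma cosine test and on log2(CPM + 1), those under both were 10.4% and 3.9%, beside 17.1% and 9.28% of all genes. Without ZT24, 39 were rhythmic under NRF and 12 had another mean level. Without DRF ZT8 replicate 1 and DRF ZT0 replicate 4, 7 were rhythmic under DRF, 4 under both, 39 had another mean level, 38 another rhythm and 21 departed from the 12 h shift. Without these 2, calls were 9 at ZT0, 30 at ZT4, 36 at ZT8, 12 at ZT12, 5 at ZT16, 8 at ZT20 and 9 at ZT24. These were 11.7%, 39%, 46.8%, 15.6%, 6.49%, 10.4% and 11.7% of members, beside 11.2%, 23.7%, 19.3%, 19.4%, 13.7%, 16.3% and 15% of all genes. Between feeding and fasting, calls were 33 under NRF and 4 under DRF (42.9% and 5.19%, beside 25.5% and 9.58%). The limma cosine test with the number of genes above 0 as a term, chosen after seeing the data, called 50 members under NRF and 25 under DRF, beside 32 and 12 by that test without the term. With the term in the other tests, 38 departed from the 12 h shift. The same term gave 5 calls at ZT0, 10 at ZT4, 20 at ZT12, 14 at ZT16, 14 at ZT20, 16 at ZT24 and 8 between feeding and fasting under DRF. On log2(CPM + 1) scaled by the total of recovered reads, chosen after seeing the data, 13 members were rhythmic under DRF and 9 under both, beside the 4 and 3 on log2(CPM + 1) by the effective size. With scaling by that total, 43 had another rhythm and 27 departed from the 12 h shift. The limma cosine test by that total called 55 under NRF, 22 under DRF and 18 under both. That scaling gave 30 calls at ZT0, 23 at ZT12, 8 at ZT16, 9 at ZT20 and 6 between feeding and fasting under DRF. A filter on low genes gave 20 calls at ZT0, with the adjustment over the 14105 genes kept rather than over all genes. A pseudocount of 0.1 gave 1 call between feeding and fasting under DRF. The shares of the genes tested with the filter and with the pseudocount are not given here. The samples share only replicate numbers: deviations of same-numbered samples correlated by 0.13, -0.01, 0.03 and 0.01 on average over 91 pairs each. With the replicate block, 6 members were called at ZT16, and 12 and 8 were rhythmic under DRF and under both in the limma cosine test. Each member had at least 383 reads in each library.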
